A study of Caenorhabditis elegans with 2 samples.

Results

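The small heat shock protein genes of *C. elegans* were followed in RNA-seq libraries of whole worms of the wild-type strain N2. All worms were fed *L. plantarum*, a Gram-positive bacterium on which larvae arrest early, with a small supplement of live *E. coli* (0.2 µl). In the control library the *E. coli* was the wild-type strain BW25113. In the *pdxH* library it was the *pdxH* mutant, a deletion strain that lacks the enzyme making pyridoxal 5-phosphate, the active form of vitamin B6. Experiments started from synchronized L1 hermaphrodites, and each library came from a pellet of many worms. The study's methods give one stage at collection for both diets without naming it. There was 1 library per diet, so no value has a replicate, no test between the diets was possible, and each interval given is a 95% interval of counting error alone.

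The genes were taken by name, as *hsp-12.1*, *hsp-12.3*, *hsp-12.6*, *hsp-16.1*, *hsp-16.2*, *hsp-16.41*, *hsp-16.48*, *hsp-25*, *hsp-43* and *sip-1*, which makes 10 of the 46904 genes in the table. Their WormBase identifiers were found through a table of symbols. *hsp-16.11* and *hsp-16.49*, the near-identical copies of *hsp-16.1* and *hsp-16.48*, were read beside them, so that 12 loci are described in all. All 10 genes and both copies had at least 20 reads over both libraries, the minimum for a gene to enter a comparison.

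Small heat shock proteins share an alpha-crystallin domain and assemble into oligomers that bind unfolding proteins without using ATP. Bound proteins are later released and refolded by Hsp70 with its Hsp40 and Hsp110 partners. In *C. elegans* the *hsp-16* genes are known for low transcription without stress and strong induction by heat through the heat shock factor HSF-1, while other members of the family are made during normal development. The FOXO factor DAF-16, whose movement into the nucleus the study also examined, is known to act on *hsp-16.1*, *hsp-16.49*, *hsp-12.6* and *sip-1* together with HSF-1.

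The control library held 40707752 reads counted on genes and the *pdxH* library 46372171. Over the 15777 genes with at least 20 reads, the median log2 ratio of *pdxH* over wild type was 0.01, and the middle of the distribution ran from -0.18 at the 25th percentile to 0.21 at the 75th percentile. Markers of body wall muscle, pharyngeal muscle, intestine, epidermis, neurons, germline, and oocytes and embryos were all read in both libraries, none at or under 3 reads. At this depth so low a limit does not show which tissues were present.

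Across the family 1 gene of the 10 lay past the threshold of 0.5 on the log2 scale, and that gene was *sip-1*, which was lower in the *pdxH* library. The background for a lower value past this threshold was 10.7% of all genes tested, and for a higher value it was 7.93%. None of the 10 genes was higher past 0.5, although *hsp-12.6* came close with a log2 ratio of 0.48. The other 9 genes lay between -0.22 and 0.48. The median log2 ratio of the 10 genes was -0.09, with 6 genes below 0 and 4 above. The share of members lower past the threshold was thus near the background, and the members lay on both sides of 0. At a threshold of 1 the count was 0 in either direction, against a background of 1.45% higher and 4.28% lower. *sip-1* was also lower past 0.5 at the upper bound of its interval, and with every gene set at the bound closest to 0 the background was 5.6% lower and 1.09% higher. An exact binomial test of the reads compares these libraries and not the diets. *sip-1* was lower past 0.5 and also passed this test at an adjusted threshold of 0.05. For both conditions together the background was 8.45% lower and 4.51% higher. By the test without the threshold of 0.5, *hsp-16.2*, *hsp-16.41* and *hsp-25* were also lower and *hsp-12.3* was higher.

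**Figure D1:**
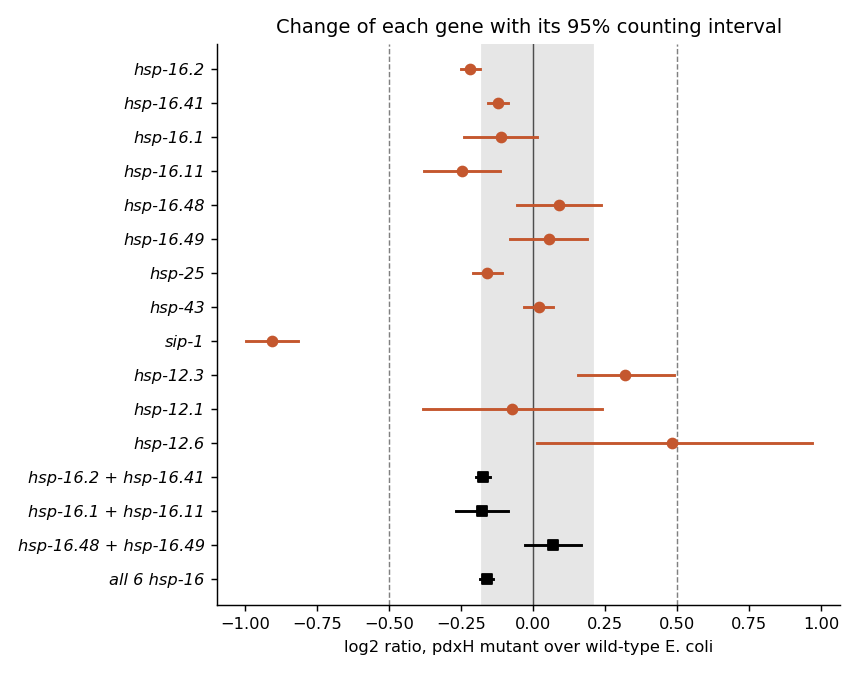
Log2 ratio of each gene, *pdxH* mutant over wild-type *E. coli* (circles), and of summed near-identical or paired *hsp-16* genes (squares), with 95% intervals of counting error as bars, 1 library per diet. The grey band is the middle 50% of all 15777 genes tested and the dashed lines mark -0.5 and 0.5; *sip-1* at -0.91 is the only gene outside the lines.

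*sip-1* (WBGene00004798) encodes a small heat shock protein known from oocytes and embryos, where it acts best at acidic pH. It lies on chromosome III from 10506106 to 10506801 on the minus strand of WBcel235, in 2 exons that code for 159 residues. It had 2567 reads in the control library and 1560 in the *pdxH* library. The control library was thus the higher one, also after scaling to library size, with 63.1 RPM (reads scaled to a fixed library total) against 33.6 RPM. The log2 ratio was -0.91 (95% interval -0.998 to -0.815), a 1.87-fold lower level, and 5.01% of all genes tested had a lower ratio. The log2 ratio of *sip-1* minus that of the other 11 loci summed was -0.78, with a counting interval from -0.87 to -0.69. Among the reads of the 12 loci, *sip-1* took 5.47% in the control library (95% Clopper-Pearson interval 5.27 to 5.68) and 3.26% in the *pdxH* library (interval 3.10 to 3.43). A noncoding gene on the opposite strand, F43D9.8, shares 123 exon bases with *sip-1* and had 0 reads in both libraries, where 3 reads is the limit that a count of 0 allows.

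Genes of the germline were lower in the *pdxH* library as well. All 6 germline markers had ratios below 0, 4 of the 6 were lower past 0.5, and their median log2 ratio was -0.71. Their ratios ran from -1.22 for *him-3*, a component of meiotic chromosome axes, to -0.40 for *syp-1*, a component of the synaptonemal complex. Summed over the list, the level was 269 RPM in the control library and 177 in the *pdxH* library. The value of *sip-1* lay inside the range of the germline markers, and also inside that of the 6 epidermis markers, from -1.19 to 0.17. The 7 oocyte and embryo markers had ratios from -0.35 for *oma-1* to 0.06 for *egg-1*, and 0 of the 7 passed the threshold. *sip-1* at -0.91 lay below their range. They summed to 28.1 RPM in the control library and 24.6 in the *pdxH* library. *sip-1* alone therefore had more reads in each library than all 7 of these markers together. In whole worms fewer cells of a type and less RNA per cell cannot be told apart, and the part of the germline in the value of *sip-1* was not tested.

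The *hsp-16* genes are the heat-inducible core of the family and sit in divergent pairs on chromosome V, in which both genes of a pair are read away from a short shared stretch. *hsp-16.2* (WBGene00002016, 1804334 to 1804957, minus strand) and *hsp-16.41* (WBGene00002018, 1805178 to 1805875, plus strand) have 220 bases between them (all positions in WBcel235). The other locus lies 7281 kb away and holds an inverted duplication over 3312 bases. There *hsp-16.1* (WBGene00002015, 9087293 to 9087782, minus strand) and *hsp-16.48* (WBGene00002019, 9088131 to 9088617, plus strand) are separated by 348 bases, and *hsp-16.49* (WBGene00002020, 9089280 to 9089766, minus strand) and *hsp-16.11* (WBGene00002017, 9090077 to 9090604, plus strand) by 310 bases. Each of the 6 genes has 2 exons. Each pair joins a gene for 145 residues (*hsp-16.2*, *hsp-16.1* or *hsp-16.11*) to one for 143 (*hsp-16.41*, *hsp-16.48* or *hsp-16.49*), and a shorter form of 127 residues is also annotated for *hsp-16.2*.

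**Figure D2:**
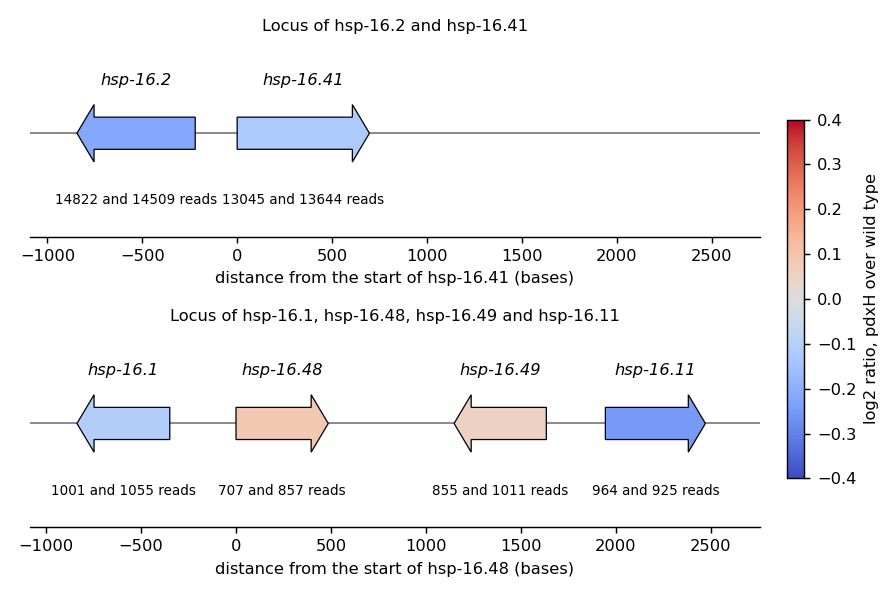
The *hsp-16* loci drawn to scale, as distance in bases from the start of *hsp-16.41* (upper panel) or *hsp-16.48* (lower panel), with arrows in the direction of transcription, colored by log2 ratio, and reads in the control library and in the *pdxH* library below each gene. *hsp-16.2* and *hsp-16.41* have 13045 to 14822 reads per library and the 4 genes of the duplicated locus 707 to 1055.

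*hsp-16.2* had 14822 reads in the control library and 14509 in the *pdxH* library, a log2 ratio of -0.22 (95% interval -0.25 to -0.19). *hsp-16.41* had 13045 and 13644 reads, for a log2 ratio of -0.12 (95% interval -0.16 to -0.09). Both genes of this pair were thus slightly lower per library size in the *pdxH* library, and 21.8% of all genes tested had a lower ratio than *hsp-16.2*. The ratio of *hsp-16.41* was 0.10 above that of *hsp-16.2*, with a counting interval of the difference from 0.05 to 0.14. The pair held 59.4% of the reads of the 12 loci in the control library (95% Clopper-Pearson interval 59.0 to 59.9) and 58.9% in the *pdxH* library (interval 58.4 to 59.3), and these intervals overlapped.

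In the duplicated locus *hsp-16.1* had 1001 reads in the control library and 1055 in the *pdxH* library, a log2 ratio of -0.11 (95% interval -0.24 to 0.01). Its copy *hsp-16.11* had 964 and 925 reads, for a log2 ratio of -0.25 (95% interval -0.38 to -0.12). The intervals of the copies overlapped, and the counting interval of their difference, -0.04 to 0.32, included 0. *hsp-16.48* had 707 and 857 reads, for a log2 ratio of 0.09 (95% interval -0.06 to 0.24). Its copy *hsp-16.49* had 855 and 1011 reads, for a log2 ratio of 0.05 (95% interval -0.08 to 0.19). Here too the counting interval of the difference between copies, -0.16 to 0.23, included 0. How reads that map to several places were counted is not given in the sources used here, so the division of reads between copies, and the level of each copy, are uncertain.

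Summing the copies takes out how reads were divided between them, though not whether reads shared by both were counted. *hsp-16.1* and *hsp-16.11* together had 1965 and 1980 reads, for a log2 ratio of -0.18 (95% interval -0.27 to -0.09). *hsp-16.48* and *hsp-16.49* together had 1562 and 1868 reads, for a log2 ratio of 0.07 (95% interval -0.03 to 0.17). The genes that face each other across the short shared stretches of the duplicated locus thus had ratios of opposite sign, although the interval of the second sum included 0, and the second sum was 0.25 above the first on the log2 scale with a counting interval from 0.11 to 0.38. *hsp-16.41*, the member of the other pair that codes for 143 residues like *hsp-16.48*, likewise lay above its partner. With 1 library per diet these differences of 0.10 and 0.25 compare the libraries, and the spread between cultures is not known.

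All 6 *hsp-16* genes together had 31394 reads in the control library and 32001 in the *pdxH* library. This was 771 and 690 RPM, a log2 ratio of -0.16 (95% interval -0.18 to -0.14). The *hsp-16* genes held 66.9% of the reads of the 12 loci in both libraries. The 12 loci together, most of whose reads are these, were at 1152 RPM in the control library and 1031 in the *pdxH* library, with a log2 ratio of -0.16. Without *sip-1* the ratio of the other 11 loci was -0.13 (95% interval -0.15 to -0.11).

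**Figure D3:**
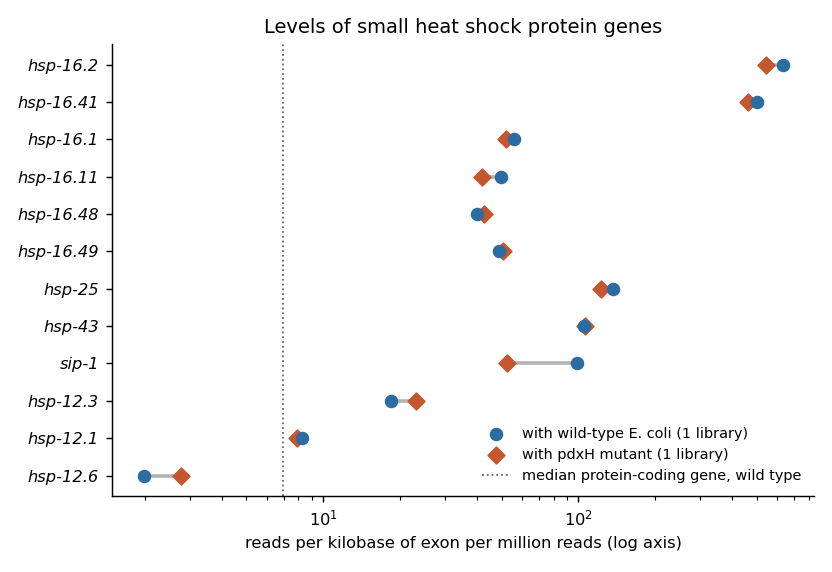
Level of each gene as exon RPKM (RPM per kilobase of exon) on a log axis, in the control library (circles) and in the *pdxH* library (diamonds), 1 library each. *hsp-16.2* at 630 and 541 is highest, *hsp-12.6* at 1.98 and 2.78 is lowest, and the dotted line is the median protein-coding gene of the control library at 6.93.

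Levels between genes were compared as exon RPKM, the RPM divided by kilobases of annotated exon. On this scale *hsp-16.2* was the highest of the 12 loci, at 630 in the control library and 541 in the *pdxH* library. It ranked 188 of 17841 protein-coding genes with reads in the control library and 204 of 17739 in the other. *hsp-16.41* followed at 501 and 460, with ranks of 237 and 247. Both of these heat-inducible genes were thus among the abundant transcripts of worms on either diet, and *hsp-16.2* was 1.26-fold and 1.18-fold above *hsp-16.41* in level. The level of *hsp-16.2* was 11.2-fold that of *hsp-16.1* in the control library and 10.4-fold in the *pdxH* library, a gap that rests on how the reads of the copies were counted. *hsp-16.1*, *hsp-16.11*, *hsp-16.48* and *hsp-16.49* lay between 40.2 and 56.1 in the control library, against a median of 6.93 over protein-coding genes with reads.

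Other heat-inducible chaperone genes were abundant in both libraries too. *hsp-70*, which encodes a heat-inducible cytosolic Hsp70, had 27716 reads in the control library and 28106 in the *pdxH* library, a log2 ratio of -0.17 (95% interval -0.19 to -0.14), and its level ranked 348 and 384. F44E5.4 and F44E5.5, a pair of closely similar Hsp70 genes between which the division of reads is uncertain too, had log2 ratios of -0.45 and -0.36. Their values and that of *hsp-70* lay on the same side of 0 as the *hsp-16* sum, but *hsp-70* and F44E5.5 were named after their values were seen. The *hsp-16* sum at -0.16 and *hsp-70* lay within the middle of the distribution of all genes tested, from -0.18 to 0.21. F44E5.4 and F44E5.5 lay below it. Among the 27 cytosolic Hsp70, Hsp90 and co-chaperone genes found, 17 lay below 0 and 10 above, among the latter *hsp-90* at 0.19. The median of this list was -0.05, against 0.01 over all genes tested, so the list as a whole lay near 0. Strains were kept at room temperature, and the temperature of these worms before collection is not given in the sources used here.

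*hsp-25* and *hsp-43* are family members known to be made without heat. HSP-25 is known from the dense bodies and M-lines of body wall muscle and from the pharynx. Its gene on chromosome X (WBGene00002023, 6034463 to 6039644, minus strand) has 4 annotated transcripts of 3 to 6 exons, which code for 108 to 219 residues. It had 6298 reads in the control library and 6425 in the *pdxH* library, a log2 ratio of -0.16 (95% interval -0.21 to -0.11). The gene shares 53 exon bases with *ipp-5*, an inositol phosphatase gene on the opposite strand that had 1284 and 1646 reads, or a log2 ratio of 0.17. The 6 body wall muscle markers were all slightly lower in the *pdxH* library, with ratios from -0.42 for *unc-22* to -0.10 for *unc-27*, a median of -0.17 and a summed level of 10431 and 9083 RPM. None of the 6 passed 0.5, *hsp-25* lay within their range, and their part in its value was not tested. The 4 pharyngeal muscle markers had a median of 0.06, from -0.06 for *myo-1* to 0.32 for *tnc-2*, with 0 past 0.5 and a summed level of 1643 and 1609 RPM.

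HSP-43 is the longest protein of the family, at 368 or 393 residues. Its gene on chromosome X (WBGene00002024, 6233151 to 6235543, minus strand) had 5920 reads in the control library and 6839 in the *pdxH* library. The log2 ratio was 0.02 (95% interval -0.03 to 0.07), so that a change of more than 0.07 in either direction lay outside the counting interval. *hsp-43* was 0.18 above *hsp-25* on the log2 scale, with a counting interval of the difference from 0.11 to 0.25. *hsp-25* and *hsp-43* were similar in level, at 136 and 105 exon RPKM in the control library and 122 and 106 in the *pdxH* library.

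The HSP-12 proteins are among the shortest of the family, close to the alpha-crystallin domain alone, and those studied are known to lack the ability to keep other proteins soluble in vitro. *hsp-12.3* (WBGene00002012, chromosome IV, 9444791 to 9445507) and *hsp-12.6* (WBGene00002013, 9446229 to 9447228) lie side by side on the minus strand with 721 bases between them, and code for 109 and 110 residues. *hsp-12.1* lies on chromosome I (WBGene00011906, 10581538 to 10582615, minus strand) and codes for 109 or 112 residues.

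*hsp-12.3* had 501 reads in the control library and 713 in the *pdxH* library, a log2 ratio of 0.32 (95% interval 0.15 to 0.49). *hsp-12.6* had 62 and 99 reads, for a log2 ratio of 0.48 (95% interval 0.01 to 0.97). *hsp-12.1* had 168 and 182 reads, for a log2 ratio of -0.07 (95% interval -0.38 to 0.24). Of the neighbors on chromosome IV, *hsp-12.3* was thus higher in the *pdxH* library beyond counting error, while the interval of *hsp-12.6* began just above 0 and this gene did not pass the exact binomial test at the adjusted threshold of 0.05. *hsp-12.1* was not separable from no change at this depth. The difference between *hsp-12.6* and *hsp-12.3* had an interval from -0.32 to 0.65. *hsp-12.3* was 0.39 above *hsp-12.1* on the log2 scale with an interval from 0.05 to 0.74. It was also 0.48 above the sum of all 6 *hsp-16* genes, with an interval from 0.32 to 0.65, so *hsp-12.3* and the *hsp-16* sum lay on opposite sides of 0.

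In level *hsp-12.1*, *hsp-12.3* and *hsp-12.6* were the lowest of the 12 loci, while *hsp-12.2*, which is not among them, was at 181 exon RPKM in the control library and 162 in the *pdxH* library. *hsp-12.6* was at 1.98 exon RPKM in the control library and 2.78 in the *pdxH* library, below the median protein-coding gene in each library. *hsp-12.1* was at 8.29 and 7.88, and *hsp-12.3* at 18.5 and 23.1. The span of the 12 loci from *hsp-12.6* to *hsp-16.2* was thus 318-fold in the control library and 195-fold in the *pdxH* library. Together the 3 *hsp-12* genes took 1.56% of the reads of the 12 loci in the control library (95% Clopper-Pearson interval 1.45 to 1.67) and 2.08% in the *pdxH* library (interval 1.95 to 2.21).

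Read against counting error alone, the members differed. The 95% interval lay wholly below 0 for 4 of the 10 genes, *hsp-16.2*, *hsp-16.41*, *hsp-25* and *sip-1*, and wholly above 0 for 2, *hsp-12.3* and *hsp-12.6*. At these depths 24% of all genes tested had an interval wholly below 0 and 25.5% one wholly above 0, so that such an interval was common. For the other 4 genes it included 0.

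**Figure D4:**
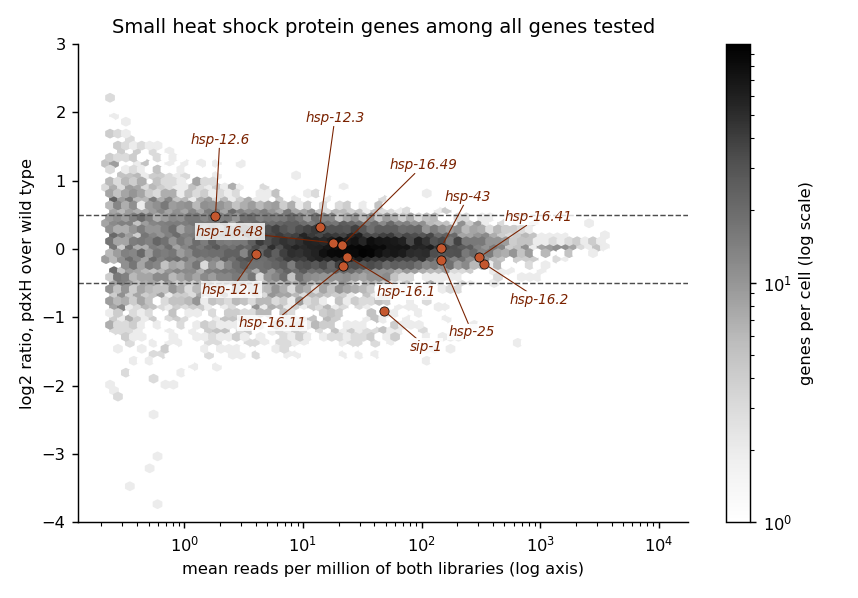
Log2 ratio against mean RPM (log axis) for the 15777 genes tested, shaded by the number of genes per cell, with the 12 small heat shock protein loci as points and dashed lines at -0.5 and 0.5. *sip-1* at -0.91 lies below the lower line and the other points lie between the lines.

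Of the DAF-16 and HSF-1 targets within the family, *sip-1* at -0.91 was the one past 0.5. *hsp-16.1* was at -0.11 and *hsp-16.49* at 0.05, both with intervals that included 0 and with levels that depend on how reads of the copies were counted. *hsp-12.6* was at 0.48 on 62 and 99 reads. A list of 9 other genes known as DAF-16 targets had a median of -0.08, with 1 gene higher past 0.5 and 1 lower, close to the shares of 7.93% and 10.7% over all genes tested. The highest was the linker histone gene *hil-1*, with 2491 and 4803 reads, or a log2 ratio of 0.76 (95% interval 0.69 to 0.83). The lowest was the lysozyme gene *lys-7*, with 1929 and 1344 reads, or a log2 ratio of -0.71 (95% interval -0.81 to -0.61). The superoxide dismutase gene *sod-3*, often used as a readout of DAF-16, had 751 and 775 reads, or a log2 ratio of -0.14 (95% interval -0.29 to 0.0041). By contrast *mtl-1* of the same list had 1855 and 2607 reads, or a log2 ratio of 0.30 (95% interval 0.22 to 0.39). In all, 4 of the 9 genes lay above 0 and 5 below.

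Genes that act with the family were compared by lists. Among the 7 genes of the heat shock factor list 0 passed 0.5 in either direction. *hsf-1* itself had 1985 and 2227 reads, or a log2 ratio of -0.02 (95% interval -0.11 to 0.07). The ends of the list were *daf-16* at 0.26 and *hsb-1*, which encodes a binding protein that restrains HSF-1, at -0.20. Of the 8 further genes of the small heat shock protein family, both copies included, 0 passed 0.5, the median was -0.09, and the ends were *hsp-16.11* at -0.25 and *hsp-16.49* at 0.05. Among them *hsp-12.2*, the remaining gene of the *hsp-12* group, was at -0.16, and *hsp-17* at 0.04.

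Of the 27 cytosolic Hsp70, Hsp90 and co-chaperone genes found, 0 passed 0.5 in either direction and the median was -0.05. The lowest was F44E5.4 and the highest *aha-1* at 0.41, which encodes a partner of the aryl hydrocarbon receptor and is no chaperone. Among genes of the machinery that refolds proteins held by small heat shock proteins, ratios were -0.10 for *hsp-1*, an Hsp70, -0.16 for *dnj-13*, an Hsp40, and -0.20 for *hsp-110*. *hsp-90* was at 0.19. The other Hsp40 genes of the list, *dnj-12* at 0.16 and *dnj-19* at 0.13, lay above 0, so these genes were on both sides of 0.

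The lists for the endoplasmic reticulum and the mitochondria hold regulators besides chaperones, and the mitochondrial list also holds proteases. All their genes found lay within 0.5 of 0 in either direction, those of the endoplasmic reticulum mostly slightly above 0. Of the 13 endoplasmic reticulum genes 12 were above 0 and 0 passed 0.5, from -0.0011 for *hsp-3*, an Hsp70 of this compartment, to 0.21 for *dnj-7*, with a median of 0.12. Of the 14 mitochondrial genes found 0 passed 0.5, from -0.31 for *ubl-5*, which acts in the mitochondrial unfolded protein response, to 0.18 for *dnj-10*, with a median of -0.04. In tissue terms, 3 of 6 epidermis markers were lower past 0.5, from -1.19 for the cuticle collagen gene *dpy-7* to 0.17 for *elt-3*, at a summed level of 1424 and 999 RPM. Of 7 intestine markers 1 was lower past 0.5, from -0.50 for *act-5* to 0.0032 for *ges-1*, at 2283 and 1832 RPM. The 6 neuron markers were all above 0, from 0.07 for *snb-1* to 0.37 for *rgef-1*, at 526 and 593 RPM, and none passed 0.5. The part of these tissue differences in the values of the small heat shock protein genes was not tested.

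**Figure D5:**
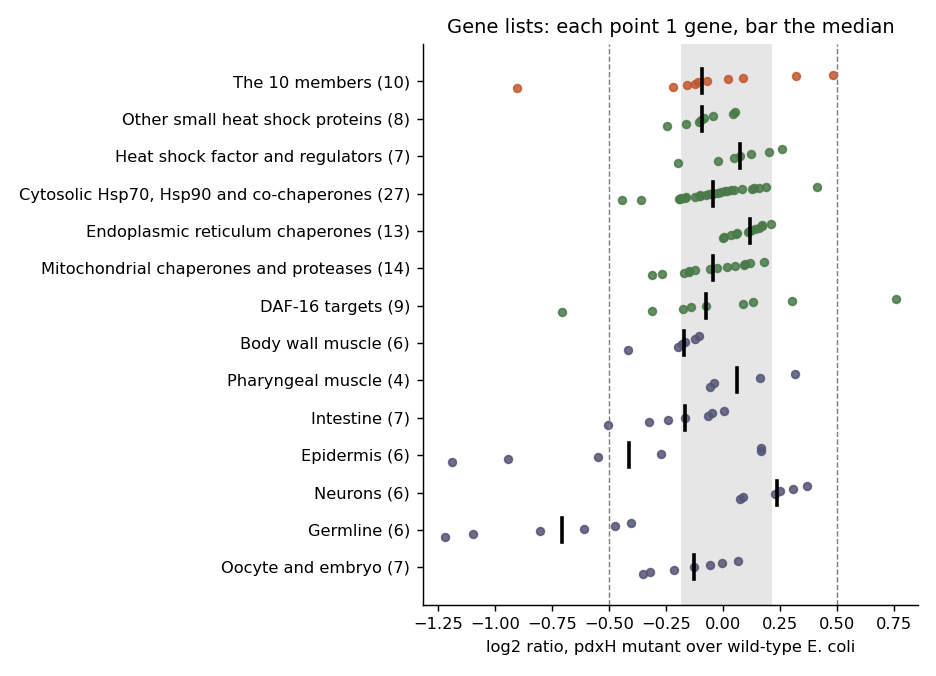
Log2 ratio of each gene (points), *pdxH* mutant over wild-type *E. coli*, in the 10 members and in each list, with the number of genes found in parentheses, the list median as a black bar and the middle 50% of all genes tested as a grey band. Germline markers, with a median of -0.71, lie furthest to the left, and the chaperone lists lie between the dashed lines at -0.5 and 0.5.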

How the data were processed

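RNA was sequenced from whole N2 worms on 2 diets, 1 library each, as paired reads. Per the labels and the study's methods, the authors trimmed reads with Trimmomatic, mapped them with STAR 2.5.3a (build ce11), took read counts per gene from HTSeq, and ran GFOLD 1.1.4 on them. The deposited signal values, named RPKM in the table, were reads scaled by library size with 1 fixed length of 20 bases for every gene. The authors' fold change, GFOLD value and error rate columns were not used.

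Whole reads were recovered by dividing each value by that of 1 read, 1.23 in the control library and 1.08 in the *pdxH* library. Of all values above 0, 97.8% and 97.6% were within 0.02 of a whole number (100% among values of up to 20 reads), and the reads added up to the totals in the table. Log2 ratios of the deposited values used a pseudocount of 1, and 15777 genes with at least 20 reads over both libraries were tested. Intervals of ratios were exact (conditional binomial, 95%), those of differences between ratios normal approximations on log reads, and all cover counting error only. Symbols were found for 44017 of 46904 identifiers, and where 1 symbol named several loci that of RefSeq (WBcel235) was used. Positions and exon lengths came from Ensembl release 115 (WBcel235, the assembly of ce11), which holds 46817 identifiers. Of the listed genes, *clpx-1* was not found and *daf-21* is another name of *hsp-90*.

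All 10 genes and both copies are named. Of each list, the genes with the highest and lowest ratio among those with at least 100 reads are named, and any others (*hsp-12.2*, *hsp-17*, *hsp-70*, F44E5.5, *hsp-1*, *hsp-110*, *dnj-12*, *dnj-13*, *dnj-19*, *hsp-90*, *hsf-1*, *sod-3*, *mtl-1*) were chosen after their values were seen. The members and lists were chosen with earlier results of these data known. The alternatives were another pseudocount, other filters, centring, a threshold of 1, the interval end nearest to no change, summed copies, and an exact binomial test (whole reads, Benjamini-Hochberg adjusted), which compares the libraries and called 712 genes higher and 1333 lower past 0.5. Adding the copies as further members was chosen after seeing the data. The procedures were tested on simulated reads drawn with counting error alone. That test checks the computation and could not show how the intervals hold under the spread between cultures. Python 3.11.15, NumPy 2.4.6, SciPy 1.17.1, pandas 2.3.3 and matplotlib 3.10.9 were used.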

Additional observations from a re-analysis of the deposited data

How the results depend on the processing

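The alternatives covered the counts of members past the threshold, the median of the members, the *hsp-16* sum and the ratio of each member. The filters on reads could not change the counts or the median, since every member has over 100 reads in both libraries together. Under the other alternatives 1 count differed from the reported one. It was the number of members lower past the threshold, which was 0 in place of 1 at a threshold of 1, since *sip-1* lies at -0.91. The ratio of *sip-1* was -0.92 when centred on the median of all genes tested and -0.91 with a pseudocount of 0.1, and the *hsp-16* sum ran from -0.17 to -0.16. The median of the 10 members was 0 when each gene was set at the end of its counting interval nearest to no change and ran from -0.11 to -0.09 otherwise; no counting interval was computed for this median. Over all genes, the share lower past 0.5 was 8.89% with at least 100 reads and 19.4% with no filter. *sip-1* was also the member called lower past 0.5 when the exact binomial test on recovered reads was required as well. Other members passed that test without passing 0.5, and the share of all genes that did so was not computed. No paired analysis was possible because there was only 1 library per diet, so that none could be left out either, and the spread between cultures is not known. Depth limits *hsp-12.6* and *hsp-12.1* most, and the division of reads between near-identical copies limits *hsp-16.1*, *hsp-16.11*, *hsp-16.48* and *hsp-16.49*.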
